A study of Mus musculus with 9 samples.

Results

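The miR-23, miR-27 and miR-24 miRNAs were followed in the extracellular vesicles that a conditionally immortalized line of mouse podocytes sheds into its medium. Podocytes are kidney epithelial cells whose processes cover the filtering capillaries. The set was chosen by name, as the 10 deposited identifiers for arms of these miRNAs that come from a pair of paralogous gene clusters, out of 1915 mouse miRNA identifiers in each table. These are mmu-miR-23a-3p, mmu-miR-23b-3p, mmu-miR-23b-5p, mmu-miR-27a-3p, mmu-miR-27a-5p, mmu-miR-27b-3p, mmu-miR-27b-5p, mmu-miR-24-3p, mmu-miR-24-1-5p and mmu-miR-24-2-5p, given below without the species prefix mmu. Of the 10, 9 were listed in every library and were tested, and miR-24-1-5p was listed at 0 in all 9 libraries.

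All cells were differentiated for 10 days at 37 °C in medium with 5% fetal bovine serum, then kept for 48 h in 1 of 3 media, per the labels. The high glucose medium held 30 mM glucose. The mannitol medium held 5.3 mM glucose with 24.7 mM mannitol, which raises osmolality like the added glucose, and the normal glucose medium held 5.3 mM glucose. Each group had 3 libraries of small RNA from vesicles that had been precipitated from the supernatant with a polymer reagent. Such precipitation also collects other RNA carriers, removal of serum vesicles is not mentioned in the labels, and all groups rest on 1 cell line. The labels do not state that replicate libraries derive from independent cultures. The p-values therefore describe only how these libraries vary, and that variation may be technical.

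Total miRNA counts were 725211 to 2553690 in high glucose, 1329426 to 2269776 with mannitol and 1087144 to 1539514 in normal glucose. Levels below are CPM, counts scaled to the total miRNA count of the library. No count from 1 to 9 occurred, so a listed 0 stands for 0 to 9 reads. The miR-30 family is known for high expression in podocytes, the labelled cell type. Its 5 members summed to 149950 to 224982 CPM in high glucose, 106713 to 177083 CPM with mannitol and 126420 to 140209 CPM in normal glucose. Over the libraries miR-30a-5p had 79829 to 179693 CPM and miR-30d-5p 25759 to 42500 CPM. The others were far lower, with 565 to 1254 CPM for miR-30c-5p, 482 to 1981 for miR-30e-5p and 50.6 to 107 for miR-30b-5p. The sum alone does not establish the cell type. MiRNAs of other cells were present as well. The liver miRNA miR-122-5p reached 9566 to 21078 CPM in high glucose, 11659 to 22511 CPM with mannitol and 9508 to 21809 CPM in normal glucose. The 4 kidney tubule miRNAs, mostly miR-192-5p at 2085 to 4635 CPM over the libraries, summed to 3323 to 5008 CPM in high glucose, 2348 to 3211 CPM with mannitol and 2286 to 3484 CPM in normal glucose, with miR-204-5p listed at 0 throughout. Of the blood cell miRNAs, miR-486a-5p stood at 2985 to 10582 CPM and miR-451a at 128 to 399 CPM over the libraries, with miR-142a-3p listed at 0 throughout.

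A miRNA hairpin is cut into a pair of arms, named 5p and 3p by the end they come from, and usually one arm is loaded into an Argonaute protein and represses mRNAs that pair with its seed, bases 2 to 8. The miR-23a, miR-27a and miR-24-2 hairpins are made from one primary transcript, and the paralogous miR-23b, miR-27b and miR-24-1 hairpins from another. Both clusters are widely expressed and are best known from blood vessels, where miR-23 and miR-27 promote the sprouting of endothelial cells, from fat cells, whose formation miR-27 restrains, and from cell division, which miR-24 restrains. In human cells miR-23a and miR-23b repress glutaminase.

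The mature sequences are shown because shared seeds and near-identical arms decide which levels can be told apart. RefSeq, in its tables for GRCm38.p6, gave a sequence for 9 of the 10 identifiers, and miR-23b-3p is named only. Capitals mark the seed.
miR-27b-3p: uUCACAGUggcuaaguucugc
miR-27a-3p: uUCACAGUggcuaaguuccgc
miR-23a-3p: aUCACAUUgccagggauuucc
miR-24-3p: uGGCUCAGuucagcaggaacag
miR-24-2-5p: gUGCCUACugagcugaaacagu
miR-24-1-5p: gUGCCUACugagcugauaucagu
miR-23b-5p: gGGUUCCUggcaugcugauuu
miR-27b-5p: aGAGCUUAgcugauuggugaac
miR-27a-5p: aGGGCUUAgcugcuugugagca

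The miR-27 3p arms were identical at 20 of 21 bases and differed by C19U, with positions counted from 1 at the 5′ end and the base of miR-27a-3p first. Their seed was shared by no other sequence among 1623 mature mouse miRNAs. Since 1 base outside the seed separates them, the split of reads between miR-27a-3p and miR-27b-3p depends on how the authors assigned reads, a step not described in the sources used here. The Mir23b hairpin likewise holds a stretch nearly identical to miR-23a-3p, with the same seed bases. The split of reads between miR-23a-3p and miR-23b-3p therefore depends on that step too. The 5p arms of the same hairpins were less alike, with 14 of 22 bases identical. Their seeds differed by G3A, counted in the same way, so the 5p arms of the miR-27 paralogs do not share a seed. The miR-24 5p arms shared their seed and their first 16 bases, and miR-24-1-5p is 23 bases long against 22 for miR-24-2-5p. The 3p arm of both miR-24 hairpins is the same sequence, so miR-24-3p cannot be assigned to a cluster.

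In the hairpins below, capitals mark the annotated arms. They are shown because miR-24-3p can come from either miR-24 hairpin while the 5p arms name their hairpin, and because miR-27b gave the most abundant arm of the set.
Mir24-2: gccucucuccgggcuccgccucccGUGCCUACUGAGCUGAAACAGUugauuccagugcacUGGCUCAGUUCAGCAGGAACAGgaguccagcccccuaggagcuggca
Mir24-1: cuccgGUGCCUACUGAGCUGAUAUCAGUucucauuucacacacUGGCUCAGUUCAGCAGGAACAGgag
Mir27b: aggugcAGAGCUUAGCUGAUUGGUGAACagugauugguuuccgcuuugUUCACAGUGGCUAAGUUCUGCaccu

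In GRCm38, the assembly also named mm10, the first cluster lies on the plus strand of chromosome 8, from 84208518 to 84208921. Mir23a spans 84208518 to 84208592, Mir27a 84208672 to 84208758 and Mir24-2 84208815 to 84208921. This cluster is outside annotated protein-coding genes, and the last 2 bases of Mir24-2 overlap an exon of the non-coding gene Gm26532. The second cluster lies on the plus strand of chromosome 13, from 63300484 to 63301275, within the protein-coding gene 2010111I01Rik of the same strand and an intron of Fancc on the opposite strand. Mir23b spans 63300484 to 63300557 and overlaps no exon of 2010111I01Rik. Mir27b, at 63300712 to 63300784, overlaps 1 annotated exon of that gene, and Mir24-1, at 63301208 to 63301275, overlaps 4 annotated exons. The clusters span 404 bases on chromosome 8 and 792 bases on chromosome 13.

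In these vesicles the 3p arms carried nearly all counts of the set, and the arms of one cluster stood at very different levels. The arms miR-23a-3p, miR-27a-3p, miR-27b-3p and miR-24-3p together took 97.8% to 98.6% of the set's counts over the 9 libraries, and the 5p arms 0.778% to 1.26%. All 10 identifiers together made up 6.26%, 7.63% and 7.63% of miRNA counts in the high glucose libraries. With mannitol they made up 6.90%, 8.59% and 5.96%, and in normal glucose 6.79%, 5.15% and 6.60%. The share was 7.17% ± 0.791 in high glucose, 7.15% ± 1.34 with mannitol and 6.18% ± 0.901 in normal glucose (SD, n = 3 each). Ratios of these means were 1.16 for high glucose against normal glucose, 1.0 for high glucose against mannitol and 1.16 for mannitol against normal glucose, and the groups overlapped in all 3 comparisons. These are shares of the miRNA counts of a library, so they give neither the number of vesicles nor the amount of a miRNA per vesicle.

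MiR-27b-3p, the miR-27 paralog from chromosome 13, was the most abundant arm and ranked 6 to 9 among all miRNAs of each library. It stood at 31963, 43990 and 42119 CPM in high glucose, 32009, 46854 and 27870 CPM in mannitol, and 31885, 27513 and 30702 CPM in normal glucose. The mannitol libraries spanned nearly the whole range of the 9 libraries. The lowest high glucose library lay just above the highest normal glucose library, at 31963 against 31885 CPM. The groups thus did not overlap in CPM, by a margin far smaller than the spread within high glucose.

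MiR-27a-3p, its paralog from chromosome 8 with the same seed, was several times less abundant. It had 4040, 5813 and 5281 CPM in high glucose, 5429, 7150 and 3638 CPM in mannitol, and 3864, 3999 and 5045 CPM in normal glucose. Mannitol replicate 2 was the highest library and mannitol replicate 3 the lowest, as for miR-27b-3p except that normal glucose replicate 2 was the lowest there. The miR-27b-3p share of both paralogs was 88.7% ± 0.285 in high glucose, 86.9% ± 1.48 with mannitol and 87.5% ± 1.66 in normal glucose (SD, n = 3 each), and no library fell below 85.5% or above 89.2%.

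MiR-23a-3p, from the chromosome 8 cluster, stood at 11552, 9924 and 11135 CPM in high glucose, 12501, 11487 and 12686 CPM in mannitol, and 13742, 6742 and 13550 CPM in normal glucose. Normal glucose replicate 2 was the lowest library, and the other libraries of that group were the highest of all 9. MiR-23b-3p, its paralog from chromosome 13, had 727, 572 and 480 CPM in high glucose, 766, 680 and 617 CPM in mannitol, and 730, 491 and 718 CPM in normal glucose. The order of the paralogs was thus the reverse of that in miR-27, with both splits resting on a read assignment that is not described. The chromosome 13 paralog gave 4.14% to 6.79% of miR-23 3p counts, with 5.17% ± 0.923 in high glucose, 5.33% ± 0.609 with mannitol and 5.62% ± 1.01 in normal glucose (SD, n = 3 each).

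MiR-24-3p, the arm made by both clusters, stood at 13704, 15299 and 16648 CPM in high glucose, 17634, 18830 and 14270 CPM in mannitol, and 17040, 12064 and 15416 CPM in normal glucose. All groups overlapped. The arms opposite it name their hairpins. MiR-24-2-5p, from chromosome 8, had 476, 628 and 498 CPM in high glucose, 433, 796 and 316 CPM in mannitol, and 516, 521 and 440 CPM in normal glucose. MiR-24-1-5p, from chromosome 13, was listed at 0 in each library, which allows it at most 0.0212% to 0.0905% of the summed miR-24-1-5p and miR-24-3p counts, depending on the library. By comparison, miR-24-2-5p took 2.17% to 4.14% of the summed miR-24-2-5p and miR-24-3p counts. These limits cover only the up to 9 reads that a listed 0 can hide, without counting error. They do not say how much miR-24-3p came from each hairpin.

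The remaining 5p arms were rare. MiR-23b-5p had 46.9, 30.5 and 30.2 CPM in high glucose, 106, 46.6 and 92.5 CPM in mannitol, and 60.4, 58.0 and 42.4 CPM in normal glucose. These levels rest on 34 to 77 reads in high glucose, 74 to 210 with mannitol and 47 to 93 in normal glucose. Mannitol replicates 1 and 3 were the highest libraries, and mannitol replicate 2 lay just below high glucose replicate 1. MiR-27b-5p ranged from 36.8 to 53.3 CPM over the 9 libraries and miR-27a-5p from 25.5 to 57.8 CPM, with all groups overlapping for both. The plot of levels by library shows these values.

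**Figure D1:**
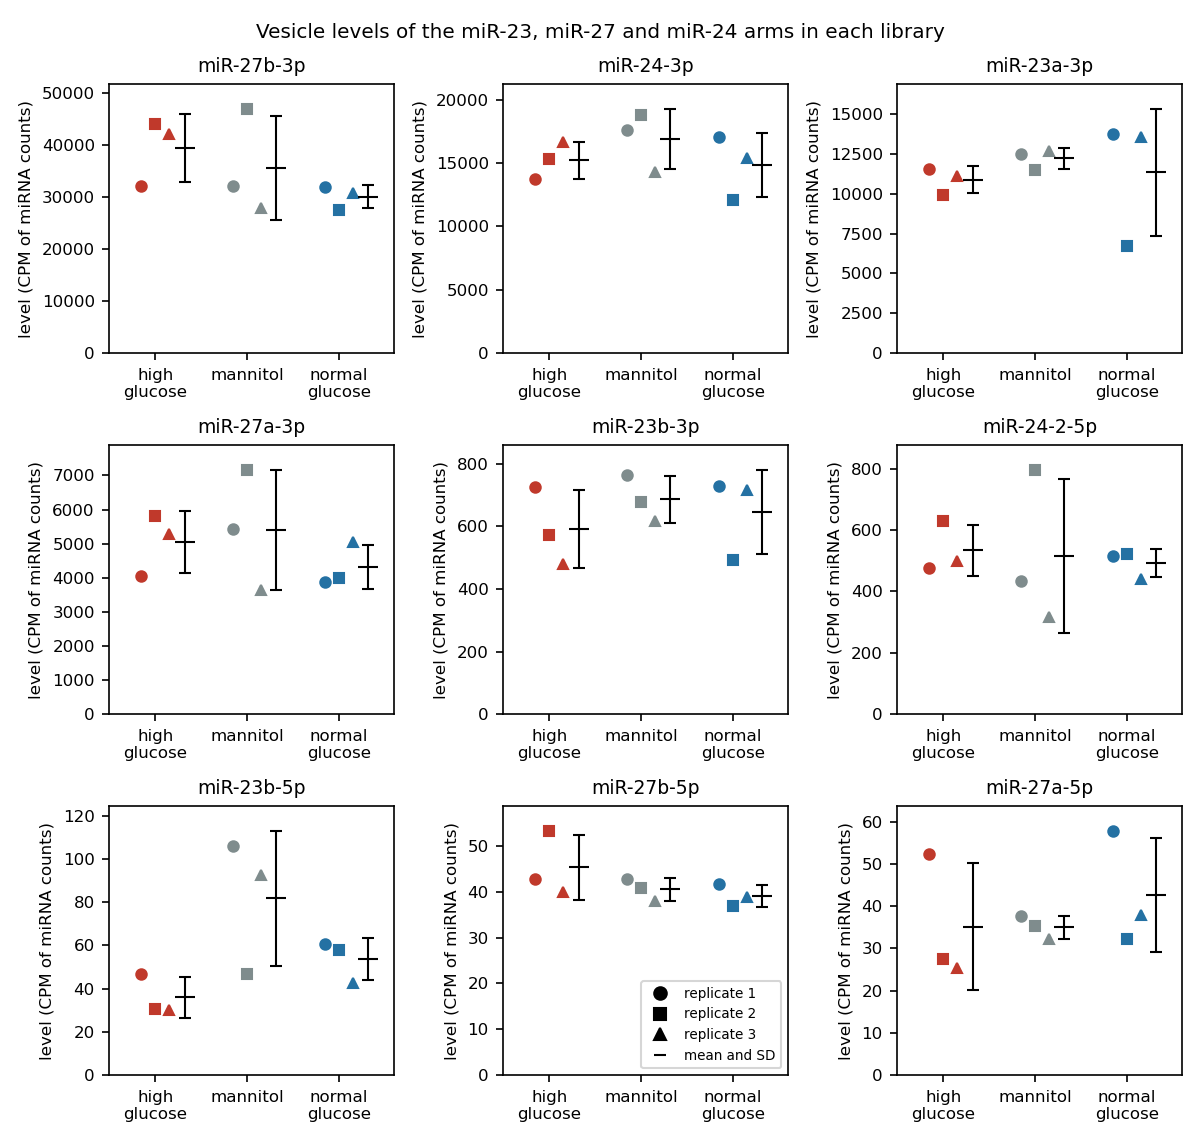
Level of each of the 9 listed arms in CPM of miRNA counts (vertical axes, linear from 0) in high glucose, mannitol and normal glucose vesicles, with 1 point per library, its shape giving the replicate number, and the mean ± SD of 3 libraries beside it. High glucose and normal glucose points are separate for 1 of the 9 arms, miR-27b-3p, at 31963 against 31885 CPM. Its ranges overlap once the TMM factors are applied, and 9.42% of all tested miRNAs had separate CPM ranges in this comparison. For miR-27b-3p, miR-27a-3p, miR-24-2-5p and miR-23b-5p the mannitol points spread more widely than those of the other groups.

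The order of the levels was nearly fixed across libraries. MiR-27b-3p exceeded miR-24-3p in 9 of 9 libraries, by 1.82 to 2.88 times. In 9 of 9 libraries miR-24-3p also exceeded miR-23a-3p, by 1.12 to 1.79 times, miR-23a-3p exceeded miR-27a-3p, by 1.61 to 3.56 times, and miR-27a-3p exceeded miR-23b-3p, by 5.29 to 10.99 times. Although each library kept this order, the ranges over libraries overlapped between miR-24-3p and miR-23a-3p and between miR-23a-3p and miR-27a-3p. MiR-23b-3p and miR-24-2-5p did not differ beyond their spread, with miR-23b-3p higher in 5 of 9 libraries. MiR-24-2-5p exceeded miR-23b-5p in 9 of 9 libraries, and the 3 rarest arms were not fixed in order, miR-23b-5p over miR-27b-5p and miR-27b-5p over miR-27a-5p each holding in 7 of 9. Levels of different miRNAs also carry the ligation preferences of the library kit, which were not measured.

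The first comparison set high glucose against normal glucose, media that differ in both glucose and osmolality. MiR-27b-3p had a mean of 39357 ± 6472 CPM (high glucose) against 30034 ± 2261 CPM (normal glucose; SD, n = 3 each). Its log2 fold change was 0.50 (SE 0.29, 95% interval -0.12 to 1.13), and it did not pass (edgeR's quasi-likelihood test, Benjamini-Hochberg adjusted p = 0.995). In CPM, high glucose was above normal glucose in 9 of 9 pairs of libraries. Pair counts and ranges use CPM without the TMM factors of the fit. These were 1.07 for high glucose replicate 1 and 0.885 for normal glucose replicate 2, and with them the ranges of miR-27b-3p overlap. For this arm the alternatives gave adjusted p-values from 0.678 to 1.0. MiR-27a-3p had a mean of 5045 ± 910 CPM (high glucose) against 4302 ± 647 CPM (normal glucose; SD, n = 3 each), with a log2 fold change of 0.35 (SE 0.32) and 8 of 9 pairs higher. Without high glucose replicate 2 that value was 0.19.

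Of the other arms, log2 fold changes in high glucose against normal glucose were 0.15 (SE 0.26) for miR-24-3p and 0.21 (SE 0.38) for miR-24-2-5p. For miR-23a-3p the value was 0.06 (SE 0.26), which became -0.06 without TMM scaling and -0.07 with the deposited constant as library size, and for miR-23b-3p it was -0.03 (SE 0.27). For the rare 5p arms the values were 0.32 (SE 0.35) for miR-27b-5p, -0.53 (SE 0.36) for miR-23b-5p and -0.23 (SE 0.40) for miR-27a-5p. Without high glucose replicate 2 the values were 0.03 for miR-24-2-5p and 0.13 for miR-27b-5p, and without high glucose replicate 3 miR-24-3p had 0.07. Without mannitol replicate 2, which enters the joint fit, miR-24-3p had 0.25 and miR-24-2-5p 0.32. None passed. By edgeR with Benjamini-Hochberg adjustment 0 of the 9 tested arms and 0.0% of all 361 tested miRNAs passed an adjusted p of 0.05. At an unadjusted p under 0.05 there were 0 of the 9 arms and 2.77% of all tested miRNAs, with 15 and 6 miRNAs at that p by DESeq2 and limma-voom, neither of which called any miRNA. With the title numbers as a replicate block edgeR had 19 miRNAs at that p in place of 10. The CPM ranges did not overlap for 1 of the 9 arms, miR-27b-3p, against 9.42% of all tested miRNAs. Of the 9 arms 6 were higher and 3 lower, with a median log2 fold change of 0.15, while 46.5% of all tested miRNAs were higher with a median of -0.04.

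High glucose was next set against mannitol, at matched osmolality. MiR-23b-5p, the arm opposite miR-23b-3p, had a mean of 35.9 ± 9.55 CPM (high glucose) against 81.7 ± 31.2 CPM (mannitol; SD, n = 3 each). Its log2 fold change was -1.03 (SE 0.36, 95% interval -1.79 to -0.28), with high glucose above mannitol in 1 of 9 pairs in CPM, and it did not pass (edgeR, Benjamini-Hochberg adjusted p = 0.704). That pair was high glucose replicate 1 at 46.9 CPM against mannitol replicate 2 at 46.6 CPM, and its order depends on the scale. The adjusted p was 0.555 by DESeq2 and 0.552 by limma-voom, and it ranged from 0.0531, in edgeR without mannitol replicate 2, to 0.9998 over all alternatives. Its partner miR-23b-3p had a mean of 593 ± 124 CPM (high glucose) against 687 ± 74.8 CPM (mannitol; SD, n = 3 each), with a log2 fold change of -0.07 (SE 0.27).

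MiR-27b-3p had a mean of 39357 ± 6472 CPM (high glucose) against 35578 ± 9983 CPM (mannitol; SD, n = 3 each), with a log2 fold change of 0.29 (SE 0.29) and 5 of 9 pairs higher. Without mannitol replicate 2, its highest library, the value was 0.67, and without high glucose replicate 2 it was 0.14. MiR-24-2-5p had 0.19 (SE 0.38), or 0.79 without that library, and miR-27a-3p had 0.06 (SE 0.32), or 0.44 without it. Values were 0.00 (SE 0.26, 95% interval -0.54 to 0.55) for miR-24-3p, -0.02 (SE 0.26) for miR-23a-3p, 0.33 (SE 0.35) for miR-27b-5p and 0.11 (SE 0.40) for miR-27a-5p. Without high glucose replicate 2, miR-27b-5p had 0.11. Without TMM scaling the values were -0.15 for miR-24-3p, -0.10 for miR-27a-3p and -0.01 for miR-27a-5p, so their signs depend on the scale. The SEs of the TMM-scaled values were 0.26 or more, so they do not show that the media gave the same level.

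Against mannitol, 0 of the 9 tested arms and 0.0% of all tested miRNAs passed by edgeR with Benjamini-Hochberg adjustment. At an unadjusted p under 0.05 there were 1 of the 9 arms, miR-23b-5p, and 5.26% of all tested miRNAs, so the arms exceeded that share by less than 1 arm, and DESeq2 and limma-voom had 26 and 29 miRNAs at that p. With the replicate block edgeR had 52 in place of 19, and without mannitol replicate 2 it had 96. DESeq2 called 1 miRNA, miR-182-5p, which is not of these clusters, and limma-voom called 0. No arm had separate CPM ranges, against 10.2% of all tested miRNAs. Of the 9 arms 6 were higher and 3 lower with a median of 0.06, against 46.5% higher and a median of -0.04 among all tested miRNAs. In the same comparison the 5 tested miRNAs of the blood cell list had a median of -0.57, with 2 higher and 3 lower, and the 7 in the whole list summed to 3136 to 4564 CPM (high glucose) against 3848 to 11009 CPM (mannitol). Here miR-486a-5p stands also for miR-486b-5p, which has the same count in each library. The 4 muscle miRNAs had a median of -0.64 and summed to 1412 to 1775 CPM (high glucose) against 1389 to 6034 CPM (mannitol). The upper mannitol value was that of mannitol replicate 3, where miR-1a-3p alone had 3822 CPM. Other lists went the other way in this comparison. The 5 podocyte miRNAs were all higher (median 0.41), as were the 3 tested kidney tubule miRNAs (median 0.49). Both endothelial miRNAs, miR-126a-3p and miR-126a-5p, were higher too (median 1.05), while the liver miRNA miR-122-5p had -0.20 (SE 0.36). The part of any of these lists in the miR-23b-5p value was not tested.

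Mannitol against normal glucose addressed osmolality without added glucose. The widest values were again in rare 5p arms. MiR-23b-5p had a mean of 81.7 ± 31.2 CPM (mannitol) against 53.6 ± 9.74 CPM (normal glucose; SD, n = 3 each), with a log2 fold change of 0.50 (SE 0.35) and 7 of 9 pairs higher, or 0.82 without mannitol replicate 2. MiR-27a-5p had a mean of 35.0 ± 2.73 CPM (mannitol) against 42.6 ± 13.4 CPM (normal glucose; SD, n = 3 each), with a log2 fold change of -0.34 (SE 0.39), or -0.08 without normal glucose replicate 1. The abundant arms lay between 0.08 for miR-23a-3p and 0.29 (SE 0.32) for miR-27a-3p, with 0.21 (SE 0.29) for miR-27b-3p and 0.15 (SE 0.26) for miR-24-3p. Without mannitol replicate 2 the values were -0.06 for miR-27b-3p, 0.00 for miR-27a-3p and 0.05 for miR-24-3p, and without mannitol replicate 3 they were 0.36, 0.51 and 0.25 in the same order. The remaining values were 0.04 for miR-23b-3p, 0.03 for miR-24-2-5p and -0.01 for miR-27b-5p.

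In mannitol against normal glucose 0 of the 9 arms and 0.0% of all tested miRNAs passed by edgeR with Benjamini-Hochberg adjustment, and DESeq2 and limma-voom called 0. At an unadjusted p under 0.05 there were 0 of the 9 arms and 1.39% of all tested miRNAs by edgeR, with 7 and 3 miRNAs by DESeq2 and limma-voom. No arm had separate CPM ranges, against 3.32% of all tested miRNAs. Of the 9 arms 7 were higher and 2 lower with a median of 0.08, against 52.1% higher and a median of 0.01 among all tested miRNAs. The comparisons share libraries with each other, so they are not separate results.

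**Figure D2:**
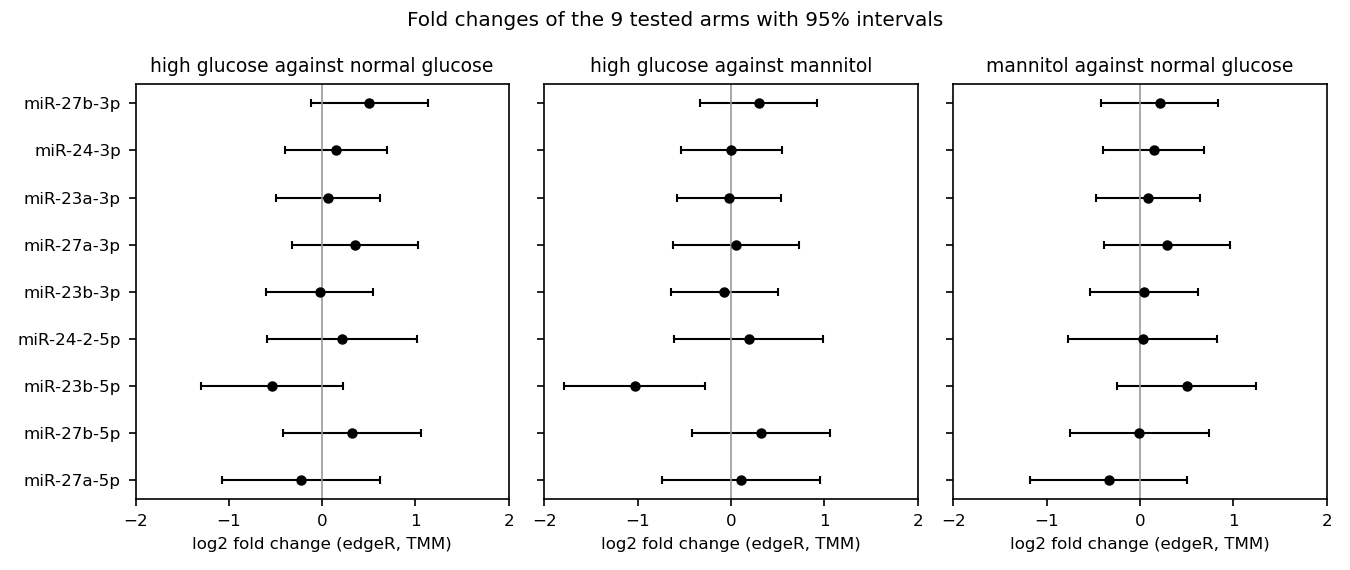
Log2 fold change of each tested arm from the joint edgeR fit with TMM scaling (horizontal axes, the same in all panels) for high glucose against normal glucose, high glucose against mannitol and mannitol against normal glucose, with points for the estimate and bars for its 95% interval. The bar of miR-23b-5p in high glucose against mannitol, at -1.79 to -0.28, is the only one that does not cross 0, and its adjusted p was 0.704. Of all tested miRNAs, 5.26% had an unadjusted p under 0.05 by edgeR in that comparison.

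Directions of the small fold changes depended on the scale. With the constant behind the deposited RPM values as library size, the median of all tested miRNAs became -0.12 in high glucose against normal glucose, -0.59 in high glucose against mannitol and 0.50 in mannitol against normal glucose. All 9 arms were then lower in high glucose than with mannitol, 6 of them with a changed sign, and all 9 were higher with mannitol than in normal glucose. Relative to that median, miR-27b-3p stood at 0.59 in high glucose against normal glucose and at 0.43 against mannitol. With TMM scaling it stood at 0.55 and 0.33 relative to the median, in the same order. MiR-23b-5p in high glucose against mannitol was at -1.08 relative to the median with the constant and at -0.99 with TMM scaling.

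Ratios between arms within a library do not depend on library scaling. MiR-23b-5p per miR-23b-3p was 0.0645, 0.0534 and 0.0628 in high glucose, 0.139, 0.0685 and 0.15 with mannitol, and 0.0827, 0.118 and 0.0591 in normal glucose. Each high glucose library lay below each mannitol library, while high glucose and normal glucose overlapped. The mean log2 ratio was lower in high glucose than with mannitol by 0.91 (difference -0.91), at the smallest two-sided p that an exact permutation test of 3 against 3 libraries can give (p = 0.1). Of 27 such tests over 9 ratios and 3 comparisons this was the only one at that p, and after Benjamini-Hochberg adjustment no exact p was below 0.972. The ratio was higher with mannitol than in normal glucose by a log2 difference of 0.43 (exact permutation p = 0.4), which was 0.19 without normal glucose replicate 3 and 0.79 without mannitol replicate 2.

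MiR-27b-3p per miR-23b-3p, neighbours on chromosome 13, was 44.0, 76.9 and 87.7 in high glucose, 41.8, 68.9 and 45.2 with mannitol, and 43.7, 56.0 and 42.8 in normal glucose. High glucose replicates 2 and 3 were the highest libraries, and high glucose replicate 1 lay within the range of both other groups. The log2 ratio was 0.50 higher in high glucose than in normal glucose (exact permutation p = 0.2, 8 of 9 pairs higher). It was 0.40 higher in high glucose than with mannitol (exact permutation p = 0.3, 7 of 9 pairs higher). With a library left out, the first difference ranged from 0.30 (high glucose replicate 3 out) to 0.80 (high glucose replicate 1 out), and the other from 0.20 to 0.70 without the same libraries. Between libraries with the same number in their titles, high glucose was higher in 3 of 3 pairs in both comparisons, where the smallest exact sign-flip p of 3 pairs is 0.25.

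The ratio of the miR-27 paralogs, miR-27b-3p per miR-27a-3p, was 7.91, 7.57 and 7.97 in high glucose, 5.90, 6.55 and 7.66 with mannitol, and 8.25, 6.88 and 6.09 in normal glucose. High glucose libraries differed least among themselves. The log2 difference between high glucose and mannitol was 0.23 (exact permutation p = 0.2, 8 of 9 pairs higher), and that between high glucose and normal glucose was 0.16 (exact permutation p = 0.4). With a library left out these ranged from 0.14 (mannitol replicate 1 out) to 0.33 (mannitol replicate 3 out) and from 0.05 (normal glucose replicate 3 out) to 0.27 (normal glucose replicate 1 out). Within the chromosome 8 cluster, miR-27a-3p per miR-23a-3p ranged from 0.350 to 0.586 in high glucose, 0.287 to 0.622 with mannitol and 0.281 to 0.593 in normal glucose. In each group replicate 2 held the highest value of this ratio, and also of miR-24-2-5p per miR-24-3p, at 0.0411 in high glucose, 0.0423 with mannitol and 0.0432 in normal glucose. For both ratios each difference between groups, on the log2 scale, was smaller than the larger of the 2 SDs within the groups compared.

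**Figure D3:**
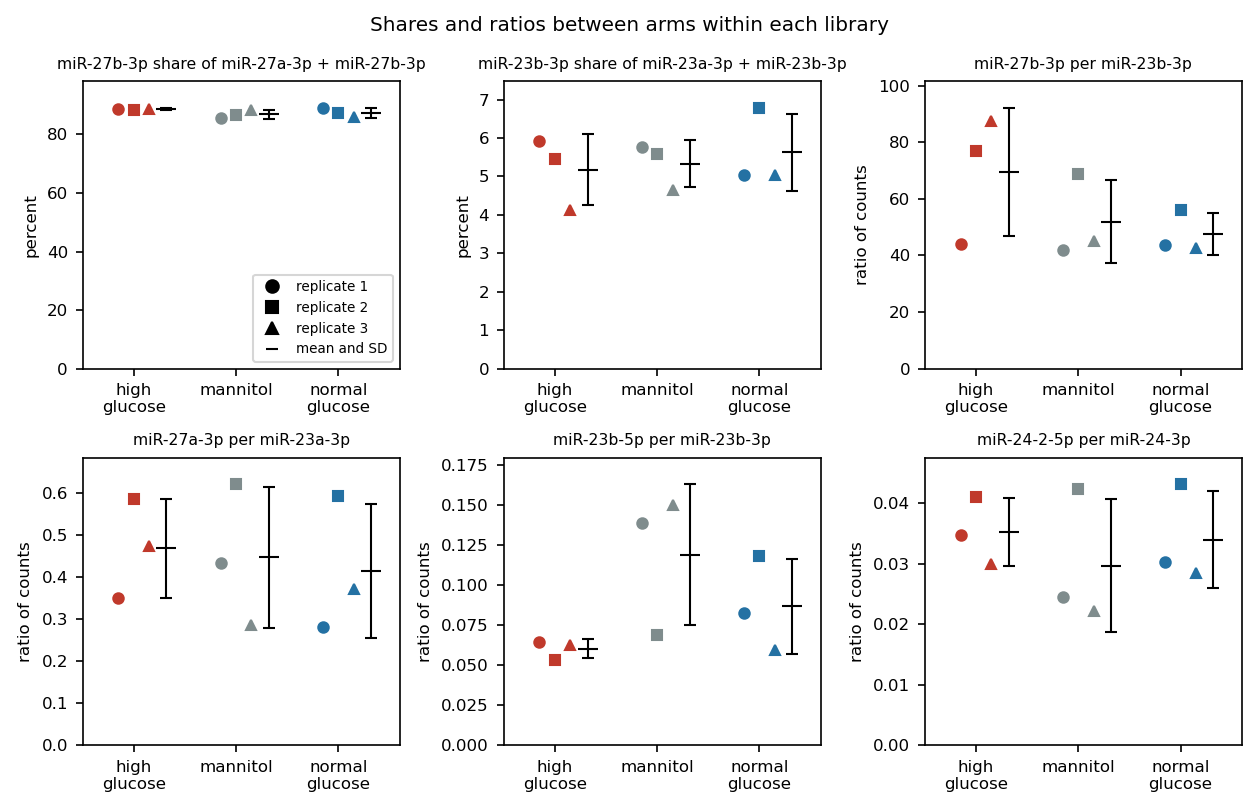
Shares in percent and ratios of counts between arms (vertical axes, linear from 0) in high glucose, mannitol and normal glucose, with 1 point per library, its shape giving the replicate number, and the mean ± SD of 3 libraries beside it. The miR-27b-3p share stays between 85.5% and 89.2%, the high glucose points of miR-23b-5p per miR-23b-3p lie below all mannitol points, and replicate 2 is highest in each group for miR-27a-3p per miR-23a-3p and miR-24-2-5p per miR-24-3p.

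Across the 9 libraries, the highest correlation among 3p arms of the set was between the miR-27 paralogs. Each paralog correlated more highly with miRNAs outside the set. Among 251 such miRNAs the highest were miR-101b-3p with miR-27b-3p (r = 0.945) and miR-872-5p with miR-27a-3p (r = 0.939). Correlations were computed on log2 CPM for 10 pairs of 3p arms, with exact permutation tests over all pairings. MiR-27a-3p and miR-27b-3p had Pearson's r = 0.838 (exact permutation p = 0.00355, Benjamini-Hochberg adjusted 0.0355) and Spearman's rho = 0.867 (exact permutation p = 0.00451, adjusted 0.0451). Within groups, on deviations from the group means, r was 0.874. Without mannitol replicates 2 and 3, the libraries farthest from the median of miR-27a-3p, r was 0.685. The permutation treats the 9 libraries as exchangeable. It allows neither for the groups nor for the same-numbered libraries of different groups, whose miRNA levels deviated together in part, so its p may be too small. As the arms differ by 1 base, reads assigned to the wrong paralog would also make them vary together, and this was not tested.

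MiR-23a-3p and miR-23b-3p had r = 0.716 (exact permutation p = 0.0202, adjusted 0.101) and rho = 0.717 (exact permutation p = 0.0369, adjusted 0.184), with r = 0.708 within groups and 0.554 without normal glucose replicates 1 and 2. Reads assigned to the wrong paralog would make these arms vary together as well, and this was not tested. Among neighbours, the miR-23 and miR-27 arms of a cluster had correlations nearer 0, none of which passed. For miR-23a-3p and miR-27a-3p, r was 0.0451 (exact permutation p = 0.915, adjusted 0.931) and rho -0.417 (exact permutation p = 0.270, adjusted 0.485). For miR-23b-3p and miR-27b-3p, r was -0.162 (exact permutation p = 0.662, adjusted 0.931) and rho 0.0 (exact permutation p = 1.0). MiR-24-3p, which both clusters make, had r = 0.665 with miR-27a-3p, 0.628 with miR-23a-3p and 0.622 with miR-27b-3p, near the value of the miR-23 paralogs (exact permutation, adjusted p = 0.152 for each). Within groups, miR-27b-3p and miR-24-3p had r = 0.742, above the 0.708 of the miR-23 paralogs. Without 2 libraries, r was 0.477 for miR-24-3p with miR-27a-3p, -0.051 with miR-23a-3p and 0.587 with miR-27b-3p. Differences between correlations were not tested, and none of the other pairs passed.

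**Figure D4:**
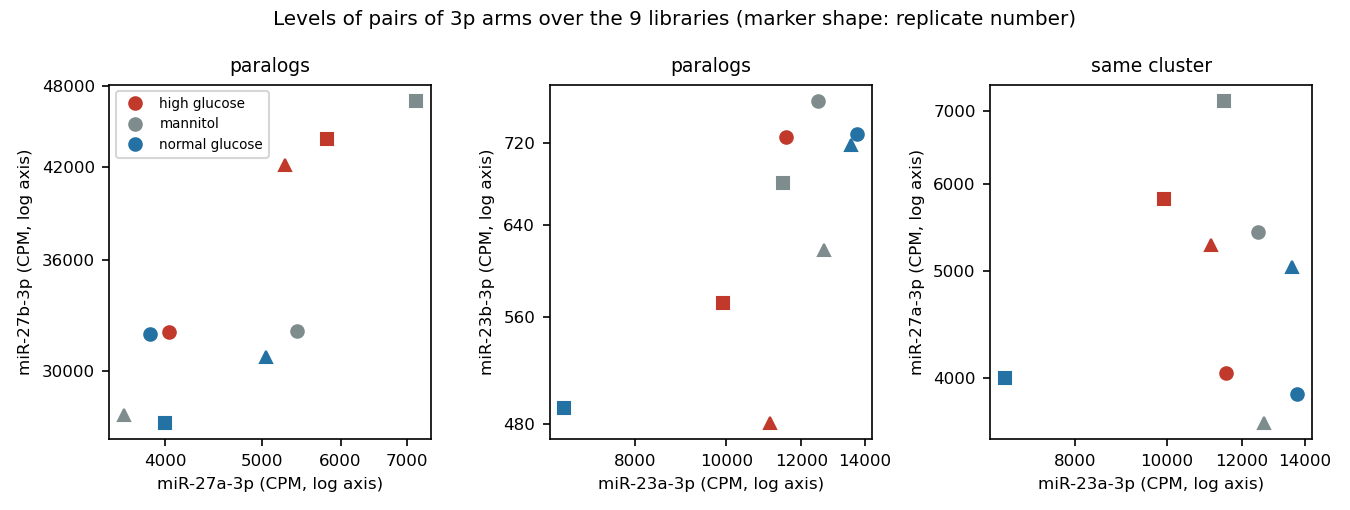
Levels in CPM on log axes for the paralogs miR-27a-3p and miR-27b-3p, the paralogs miR-23a-3p and miR-23b-3p, and the chromosome 8 neighbours miR-23a-3p and miR-27a-3p, with 1 point per library coloured by group and shaped by replicate number. The miR-27 paralogs lie along a rising band (r = 0.838), the miR-23 paralogs along a looser one (r = 0.716), and the neighbours show no common direction (r = 0.0451).

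Among 251 miRNAs compared over the 9 libraries, the closest in pattern to miR-27b-3p were miR-101b-3p (r = 0.945) and miR-152-3p (r = 0.918). Closest to miR-27a-3p were miR-872-5p (r = 0.939) and miR-200a-3p (r = 0.880), and closest to miR-23a-3p were miR-210-3p (r = 0.903) and miR-425-5p (r = 0.893). For miR-23b-3p they were miR-6239 (r = 0.882) and miR-3473b (r = 0.875), and for miR-24-3p miR-181b-5p (r = 0.739) and miR-503-3p (r = 0.734). These are the highest of many correlations over libraries that share groups and depth, and are given as a description.

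Other arms annotated at the same loci were hardly seen. MiR-23a-5p, miR-3074-1-3p and miR-3074-2-3p were listed at 0 in all 9 libraries, and miR-3074-5p, from hairpins on the strand opposite the miR-24 genes, had 10 reads in mannitol replicate 1 alone. MiR-128-3p has a seed that is shifted against that of miR-27, and its bases 2 to 7, CACAGU, are bases 3 to 8 of miR-27b-3p. Capitals mark its seed.
miR-128-3p: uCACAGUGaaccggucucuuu
MiR-128-3p stood at 2133, 1651 and 1331 CPM in high glucose, 2870, 2175 and 1797 CPM in mannitol, and 1975, 3370 and 1859 CPM in normal glucose, below miR-27a-3p in every library. Its log2 fold changes were -0.46 (SE 0.33) for high glucose against normal glucose, -0.27 (SE 0.33) for high glucose against mannitol and -0.19 (SE 0.33) for mannitol against normal glucose, and none passed by edgeR.

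A list of 11 other miRNAs linked to blood vessel growth had 9 tested. In high glucose against normal glucose 3 were higher and 6 lower with a median log2 fold change of -0.06, in high glucose against mannitol 5 were higher and 4 lower (median 0.02), and in mannitol against normal glucose 0 were higher and 9 lower (median -0.25). With the deposited constant as library size, the last became 7 higher and 2 lower, with a median 0.31 below that of all tested miRNAs. The most abundant members were miR-92a-3p, which restrains vessel growth, at -0.69 (SE 0.40) in high glucose against normal glucose, and miR-221-3p at 0.14 (SE 0.28). A list of 12 miRNAs linked to kidney fibrosis, not split by whether they promote or restrain it, had 7 tested. Of these 6 were higher and 1 lower in high glucose against normal glucose (median 0.39) and in high glucose against mannitol (median 0.39), while 1 was higher and 6 lower in mannitol against normal glucose (median -0.12). With the deposited constant, 3 were higher and 4 lower in high glucose against mannitol, and 7 higher in mannitol against normal glucose. Its most abundant members, miR-21a-5p and miR-192-5p, had 0.39 (SE 0.35) and 0.42 (SE 0.30) in high glucose against normal glucose. By edgeR with Benjamini-Hochberg adjustment 0 members of either list passed in any of the 3 comparisons.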

How the data were processed

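Per the file headers, each deposited table holds a total count and a normalized value per miRNA. The whole-number counts were used as deposited. Normalized values behaved as RPM values, the count divided by 1 constant per library, deposited without a statement of what the constant counts, and the miRNA counts made up 3.43% to 9.71% of it. The submitters' processing notes name BWA, bcl2fastq and mm10, without settings.

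Groups come from the treatment label, 3 libraries each. Fold changes came from a joint robust quasi-likelihood fit of all 9 libraries in edgeR 4.0.16 under R 4.3.3, with TMM scaling and expression filtering, which kept 361 of 479 listed miRNAs, with Benjamini-Hochberg adjustment and a threshold of 0.05. The procedure was run on simulated counts with independent libraries and known changes larger than those of the arms here. That run does not show its power for changes of the sizes reported here. Ratios and correlations were tested by exact permutation (scipy 1.17.1). Alternatives were DESeq2 1.42.0, limma-voom (limma 3.58.1), other library scalings, no filter, zeros set to 9, paralogs summed, a replicate block and leaving out each library. Context came from GENCODE M21. The members, lists and named miRNAs (members, pattern-alike pairs and the 2 most abundant of each list) were chosen with earlier results of these data known. The muscle list used miR-133b-3p for miR-133b.

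Library pairs within a group all differed beyond counting error, which does not show that they come from separate cultures. Each library was counted as 1 replicate. The first title of each group bears no number and was taken as replicate 1. Deviations of same-numbered libraries correlated at 0.454, 0.521 and 0.169 between high glucose and mannitol. Between high glucose and normal glucose the values were 0.197, 0.316 and 0.244, and between mannitol and normal glucose 0.229, 0.083 and -0.058. The labels state no pairing, and these values do not settle whether the numbers pair the samples. The main fit and the ratio permutations left the numbers out, and the replicate block was run as an alternative.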

Additional observations from a re-analysis of the deposited data

How the results depend on the processing

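In 486 refits of the 27 fold changes, 429 kept their direction, 57 reversed and 0 passed. With paralogs summed, the value of the summed miR-23 or miR-27 3p arms was counted for each of its paralogs. With the deposited constant, high glucose against mannitol gave -0.16 for miR-27b-3p, -0.48 for miR-24-3p, -0.38 for miR-27a-3p, -0.27 for miR-24-2-5p, -0.23 for miR-27b-5p and -0.52 for miR-27a-5p. High glucose against normal glucose gave -0.066 for miR-23a-3p, and mannitol against normal glucose 0.47 for miR-27b-5p and 0.072 for miR-27a-5p. The ratio of summed levels in mannitol against normal glucose was 1.52 as a share of the constant and 1.16 as a share of miRNA counts. The median of all tested miRNAs moved with this scaling, as given above. Without TMM, values were -0.062 (miR-23a-3p, high against normal glucose), -0.15 (miR-24-3p), -0.10 (miR-27a-3p) and -0.013 (miR-27a-5p) against mannitol, and 0.053 (miR-27b-5p, mannitol against normal glucose). For miR-24-3p against mannitol, RLE and DESeq2 gave -0.018, zeros set to 9 -0.019 and no filter -0.0030. Limma-voom gave -0.057 for miR-27a-5p in high glucose against mannitol and -0.11 for miR-24-2-5p in mannitol against normal glucose. Zeros set to 9 gave 0.038 for miR-27b-5p there, and paralogs summed gave 0.056 for both miR-23 3p arms together in high against normal glucose, in place of -0.03 for miR-23b-3p. The cause of the other changes was not tested.

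Counts of miRNAs past the threshold were 2, 3 and 1 without the filter, 1 by DESeq2 in high glucose against mannitol, and 0 to 1 there with a library left out (1 without mannitol replicate 2). With the replicate block 0 miRNAs passed in each comparison, 19, 52 and 17 had an unadjusted p under 0.05 against 10, 19 and 5 without it, and it changed no call. Leaving out single libraries gave 1 (high glucose replicate 2 out) to 25 (mannitol replicate 2 out) at that p in high against normal glucose, 6 (mannitol replicate 3 out) to 96 (mannitol replicate 2 out) in high glucose against mannitol, and 1 (mannitol replicate 1 out) to 36 (mannitol replicate 2 out) in mannitol against normal glucose. The block gave -0.088 for miR-24-2-5p in mannitol against normal glucose. Same-numbered libraries of those groups correlated at 0.229, 0.083 and -0.058, and not every library correlated best with its own number.

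With a library left out, fold changes that reversed ranged, in high against normal glucose, from -0.17 to 0.21 (miR-23a-3p), -0.15 to 0.086 (miR-23b-3p) and -0.55 to 0.030 (miR-27a-5p). Against mannitol the ranges were -0.10 to 0.20 (miR-24-3p), -0.086 to 0.034 (miR-23a-3p), -0.16 to 0.44 (miR-27a-3p), -0.23 to 0.044 (miR-23b-3p), -0.072 to 0.79 (miR-24-2-5p) and -0.25 to 0.28 (miR-27a-5p). In mannitol against normal glucose they were -0.063 to 0.36 (miR-27b-3p), -0.10 to 0.24 (miR-23a-3p), -0.015 to 0.12 (miR-23b-3p), -0.47 to 0.29 (miR-24-2-5p) and -0.024 to 0.072 (miR-27b-5p). The summed share ratio ranged from 1.07 to 1.23, 0.926 to 1.12 and 1.04 to 1.25 in the 3 comparisons. Log2 ratio differences that reversed ranged, in high against normal glucose, from -0.24 to 0.030 (miR-23b-3p per miR-23a-3p), -0.032 to 0.51 (miR-27a-3p per miR-23a-3p), -0.080 to 0.23 (miR-24-3p per miR-23 3p) and -0.052 to 0.25 (miR-24-2-5p per miR-24-3p). Against mannitol they ranged from -0.17 to 0.10, -0.18 to 0.38 and -0.11 to 0.15 for the first 3 of these, -0.49 to 0.24 (miR-27a-5p per miR-27a-3p) and -0.23 to 0.12 (miR-27b-5p per miR-27b-3p). In mannitol against normal glucose they ranged from -0.15 to 0.080 (miR-23b-3p per miR-23a-3p), -0.18 to 0.043 (miR-27b-3p per miR-27a-3p), -0.17 to 0.40 (miR-27a-3p per miR-23a-3p), -0.12 to 0.24 (miR-27b-3p per miR-23b-3p), -0.11 to 0.21 (miR-24-3p per miR-23 3p) and -0.27 to 0.052 (miR-27b-5p per miR-27b-3p). Setting zeros to 9 could not alter any ratio, as no arm in them was at 0.

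Depth limits the rare arms most, at 31 to 210 reads for miR-23b-5p, miR-27b-5p and miR-27a-5p. Groups of 3 libraries cannot reach an exact p under 0.1.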
